A study of Mus musculus with 8 samples.

Results

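Checkpoint receptors and ectonucleotidases are a set of 8 genes chosen by name from the 27179 genes of the count matrix: the receptor genes Pdcd1, Lag3, Havcr2, Ctla4, Cd200r1 and Lilrb4, and the enzyme genes Entpd1 and Nt5e. Total RNA of mouse natural killer (NK) cells was sequenced to measure their transcripts. NK cells are lymphocytes that kill tumour and infected cells without rearranged antigen receptors. The 8 libraries form 4 groups of 2: CIS-/- cells in vitro, wild type cells in vitro, CIS-/- cells ex vivo and wild type cells ex vivo. All came from C57BL/6 mice, with spleen, bone marrow and blood named together as the source, and were selected with magnetic beads against CD49b (DX5). The in vitro cells differ from the ex vivo cells in having been cultured. The labels give no age or sex of the mice, no medium, cytokine or duration of culture, and no design of the CIS deletion. Whether replicates were separate mice or cultures is not stated either, and p-values then cover only how far these libraries spread, which may be technical.

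CIS is the cytokine-inducible SH2 protein encoded by Cish, a feedback inhibitor of cytokine receptor signalling, and the comparison of CIS-null with wild-type cells asks what its loss changes in NK cells. Inhibitory checkpoint receptors bind ligands on tumour, myeloid or epithelial cells and recruit adaptors or phosphatases that dampen activation, and several of them mark chronically stimulated T cells. NK cells can carry LAG-3, TIM-3 and CD200R on their surface. The ectonucleotidase CD39 (Entpd1) degrades extracellular ATP and ADP to AMP, and CD73 (Nt5e) turns AMP into adenosine, which inhibits lymphocytes through adenosine receptors.

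Library totals ran from 21.5 to 28.1 M counts. The targeted gene, Cish, had 21.2 and 17.2 CPM (read counts scaled to the size of each library) in CIS-null in vitro libraries, against 220 and 202 CPM in wild-type in vitro libraries. Ex vivo it had 1.29 and 2.64 CPM in CIS-null libraries, against 9.26 and 9.12 CPM in wild-type libraries. In both states the CIS-null libraries were the lower ones. All 10 NK cell markers on a fixed list were detected in every library, with summed levels of 19627 to 34393 CPM. Gzma alone gave 11678 to 25875 CPM in vitro and 9596 to 11474 CPM ex vivo. In culture of CIS-null cells edgeR called 1 of the 10 higher and 7 lower, and in wild-type cells 1 higher and 8 lower. Their median log2 fold changes were -1.50 in CIS-null and -1.27 in wild-type cells. Among all tested genes 72.4% and 63.7% were called in culture of CIS-null and wild-type cells. One of the 10 markers, Itga2, which encodes the CD49b used for selection, ran from 7.13 to 21.2 CPM in vitro, against 235 to 277 CPM ex vivo. Sex-linked transcripts also separated the groups. Xist, transcribed from the inactive X chromosome, had 131 and 89.7 CPM in CIS-null in vitro libraries, against 0 and 0.0351 CPM in wild-type in vitro libraries. Ex vivo it had 0.322 and 0.197 CPM in CIS-null libraries, against 120 and 162 CPM in wild-type libraries. The Y-linked Eif2s3y had 0.0385 and 0 CPM in CIS-null in vitro libraries, against 135 and 122 CPM in wild-type in vitro libraries. Ex vivo, Eif2s3y had 84.9 and 70.4 CPM in CIS-null libraries, against 34.1 and 21.7 CPM in wild-type libraries. Sex-linked transcripts thus moved with the groups in every comparison below, and the sex of the mice cannot be told apart from genotype or culture.

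The members lie on 7 chromosomes in build GRCm38.p6. Pdcd1 and Ctla4 are both on chromosome 1, at 94038305-94052553 and 60909025-60915832. Lag3 is on chromosome 6 at 124904359-124912434, Havcr2 on chromosome 11 at 46454931-46481255, and Entpd1 on chromosome 19 at 40612366-40741602. Cd200r1 is on chromosome 16 at 44765736-44794977, 16.7 kb from its relative Cd200r4. Lilrb4, named Lilrb4a in RefSeq, is on chromosome 10 at 51490898-51496613, 4.57 kb from its relative Gp49a. Nt5e is on chromosome 9 at 88327609-88372089, on the same chromosome as Cish and 18.92 Mb from it.

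RefSeq promoter windows, from 250 bases before to 50 bases after each start, were given for 5 of the 8 members. Shown are Havcr2, called higher in culture of both genotypes, and Ctla4, called higher in culture of CIS-null cells only. Nt5e and Entpd1, which did not pass the test, are shown beside them, because these pairs mark the main contrast in the set. Capitals mark matches to a STAT5 motif (TTCNNNGAA), an AP-1 motif (TGANTCA) or an NFAT core (GGAAA), searched on both strands. The sequences run 5′ to 3′ on the gene's strand, which is the plus strand for all 4, and come from GRCm38.p6 at chr11:46454681-46454980 (Havcr2), chr1:60908775-60909074 (Ctla4), chr9:88327359-88327658 (Nt5e) and chr19:40612116-40612415 (Entpd1, the upstream of 2 entries).
Havcr2: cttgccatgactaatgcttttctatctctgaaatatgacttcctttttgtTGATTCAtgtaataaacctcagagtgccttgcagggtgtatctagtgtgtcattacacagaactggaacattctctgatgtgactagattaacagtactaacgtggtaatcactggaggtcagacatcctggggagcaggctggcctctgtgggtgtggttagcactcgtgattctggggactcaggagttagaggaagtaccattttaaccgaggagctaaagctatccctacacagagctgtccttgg
Ctla4: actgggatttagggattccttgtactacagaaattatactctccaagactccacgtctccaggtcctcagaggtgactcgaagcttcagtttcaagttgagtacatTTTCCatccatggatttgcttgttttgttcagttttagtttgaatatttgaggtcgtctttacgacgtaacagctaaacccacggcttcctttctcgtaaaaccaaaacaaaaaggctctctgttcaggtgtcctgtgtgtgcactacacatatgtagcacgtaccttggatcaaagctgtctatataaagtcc
Nt5e: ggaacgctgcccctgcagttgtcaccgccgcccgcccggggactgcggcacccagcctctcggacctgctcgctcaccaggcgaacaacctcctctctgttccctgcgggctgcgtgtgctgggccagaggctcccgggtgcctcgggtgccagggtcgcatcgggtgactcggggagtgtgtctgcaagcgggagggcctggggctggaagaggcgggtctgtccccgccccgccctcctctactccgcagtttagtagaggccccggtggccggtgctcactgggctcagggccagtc
Entpd1: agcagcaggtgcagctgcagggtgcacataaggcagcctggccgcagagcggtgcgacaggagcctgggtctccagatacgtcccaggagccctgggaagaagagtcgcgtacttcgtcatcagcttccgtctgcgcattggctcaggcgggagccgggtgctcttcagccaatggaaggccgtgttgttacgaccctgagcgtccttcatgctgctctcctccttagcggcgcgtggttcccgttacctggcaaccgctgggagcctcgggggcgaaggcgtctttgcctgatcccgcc
The Havcr2 window held 1 AP-1 match, starting at position -200, and the Ctla4 window 1 NFAT core at position -144. The Nt5e window and this Entpd1 window held no match to any of the 3 motifs, and the other Entpd1 entry held 2 NFAT cores. The Pdcd1 window, not shown, also held 2 NFAT cores, the first at position -28. Among 32544 mouse promoters of this length, 8.33% held the STAT5 motif, 7.79% the AP-1 motif and 61.5% the NFAT core. None of the windows of the 5 members held the STAT5 motif. A match describes these letters and is not evidence of binding.

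Between genes, levels were compared as RPKM, the CPM value divided by gene length in kilobases. In vitro the order of the members was Lilrb4, Lag3, Cd200r1, Entpd1, Havcr2, Nt5e, Ctla4 and Pdcd1 in both genotypes. Lilrb4 averaged 145 ± 5.93 RPKM in CIS-null and 106 ± 4.29 RPKM in wild-type in vitro cells, and Lag3 120.5 ± 14.0 and 105 ± 7.47 RPKM in CIS-null and wild-type in vitro cells (SD, n = 2 each). Only Lilrb4 and Lag3 of wild-type cells overlapped among neighbours in that order. Ex vivo the order differed, with Entpd1 first at 36.0 ± 9.65 RPKM in CIS-null cells and 27.2 ± 4.67 RPKM in wild-type cells (SD, n = 2 each). Nt5e and Lag3 were next in CIS-null cells at 5.97 and 4.92 RPKM, and their libraries overlapped. In wild-type ex vivo cells Lag3 was next at 5.32 RPKM, then Lilrb4 and Nt5e at 3.61 and 3.29 RPKM, whose libraries overlapped. Havcr2, Ctla4 and Pdcd1 were the lowest ex vivo, at 0.308, 0.155 and 0.0681 RPKM in CIS-null cells and 0.175, 0.150 and 0.129 RPKM in wild-type cells, and neighbours among the 3 overlapped in both genotypes.

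**Figure D1:**
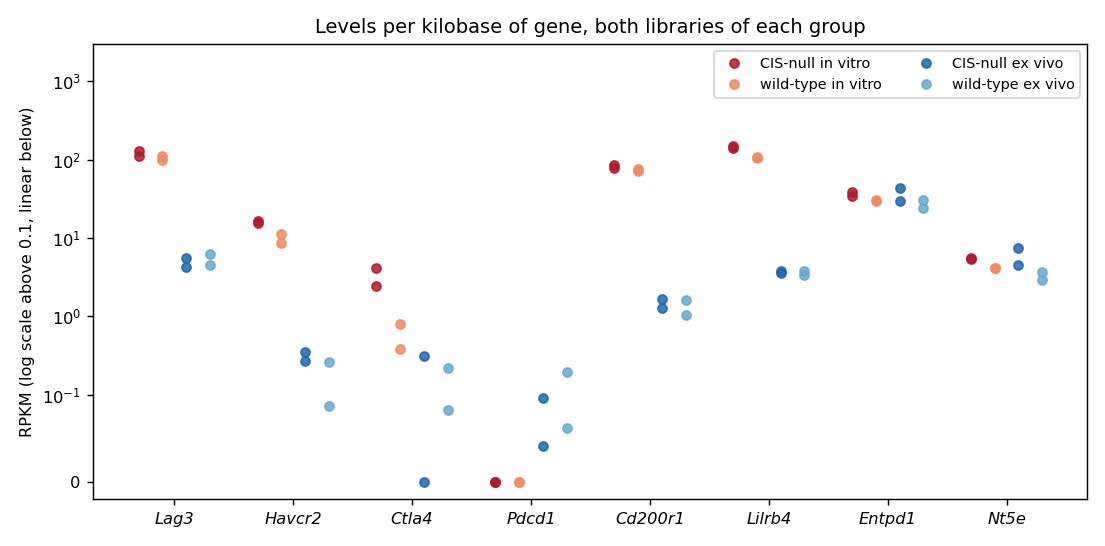
Levels of the 8 members in RPKM (vertical axis, log scale above 0.1 and linear below), with 1 point per library and colours for the 4 groups. Lilrb4, Lag3 and Cd200r1 lie above Entpd1 in the in vitro libraries and below it in the ex vivo libraries.

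In CIS-null cells 5 of the 7 members tested were higher in vitro than ex vivo, all 5 of them receptor genes, and neither enzyme gene passed the test. In wild-type cells 4 of the 7 were higher. Pdcd1 went the other way in counts, and did not pass the low-count filter. Across all 13184 tested genes, edgeR called 72.4% changed in culture of CIS-null cells (34.8% higher) and 63.7% in culture of wild-type cells (32.1% higher), so a call in this contrast is common. A call with a rise of at least 8-fold was less common, at 4.26% of genes in CIS-null and 3.75% in wild-type cells. The 5 receptor genes called in CIS-null cells and the 4 called in wild-type cells all passed 8-fold. These are bulk samples, in which fewer cells of a type and less RNA per cell cannot be told apart.

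Lag3 encodes LAG-3, a receptor for MHC class II and FGL1. It had 261 and 221 CPM in CIS-null in vitro libraries, against 8.52 and 11.2 CPM in CIS-null ex vivo libraries. In wild-type cells it had 199 and 220.0 CPM in vitro, against 8.92 and 12.4 CPM ex vivo. All in vitro libraries lay far above all ex vivo libraries. The log2 fold change was 4.61 (SE 0.196, edgeR adjusted p = 4.70e-07) in CIS-null cells, or 24.4-fold, and 4.29 (SE 0.193, edgeR adjusted p = 8.22e-07) in wild-type cells, or 19.6-fold.

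Havcr2 encodes TIM-3, a receptor whose described ligands include galectin-9. It had 42.8 and 44.9 CPM in CIS-null in vitro libraries, against 0.737 and 0.944 CPM in CIS-null ex vivo libraries. Wild-type cells had 30.3 and 23.2 CPM in vitro, against 0.715 and 0.237 CPM ex vivo. The in vitro libraries were high and did not overlap the ex vivo libraries, where the gene had 40 counts over both CIS-null and 23 over both wild-type libraries. The log2 fold change was 5.69 (SE 0.286, edgeR adjusted p = 1.07e-06) in CIS-null cells and 5.82 (SE 0.311, edgeR adjusted p = 1.96e-06) in wild-type cells.

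Cd200r1 encodes the receptor for CD200, which restrains myeloid and lymphoid cells. It had 149 and 163 CPM in CIS-null in vitro libraries, against 2.39 and 3.15 CPM in CIS-null ex vivo libraries. Wild-type cells had 134 and 143 CPM in vitro, against 1.94 and 3.08 CPM ex vivo. The states did not overlap in either genotype. The rises, of 55.8-fold in CIS-null cells and 54.9-fold in wild-type cells, placed Cd200r1 at rank 148 and 122 among 13184 genes ordered from the largest rise (edgeR adjusted p = 2.11e-07 and 2.94e-07).

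Lilrb4 encodes an inhibitory immunoglobulin-like receptor (gp49B) of mast cells, myeloid cells and NK cells. It had 199.9 and 212 CPM in CIS-null in vitro libraries, against 5.02 and 5.43 CPM in CIS-null ex vivo libraries. Wild-type libraries held 147 and 155 CPM in vitro, against 4.84 and 5.41 CPM ex vivo. The libraries of each group lay within 1.12-fold of each other and the states were far apart. The log2 fold change was 5.30 (SE 0.114, edgeR adjusted p = 3.62e-08) in CIS-null cells and 4.88 (SE 0.112, edgeR adjusted p = 5.19e-08) in wild-type cells.

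Ctla4 encodes CTLA-4, which competes with CD28 for CD80 and CD86 and is best known on T cells. It had 4.66 and 7.97 CPM in CIS-null in vitro libraries, against 0.599 and 0 CPM in CIS-null ex vivo libraries. In wild-type cells it had 1.53 and 0.738 CPM in vitro, against 0.421 and 0.158 CPM ex vivo. The states did not overlap in either genotype, but the ex vivo values rest on 13 counts over both CIS-null and 14 over both wild-type libraries. The rise passed the test in CIS-null cells (4.46 on the log2 scale, SE 0.854, edgeR adjusted p = 0.00149), and the wild-type difference did not (1.97, SE 0.912, edgeR adjusted p = 0.0883). All 13 CIS-null ex vivo counts were in replicate 1. Without replicate 2 of that group the CIS-null difference was 3.39, and without replicate 1, against a library at 0, the fitted value was 10.37, which is no bound. The wild-type difference passed with the wild-type libraries alone (edgeR adjusted p = 0.0252), as it did with either CIS-null ex vivo library left out (0.0193 without replicate 1 and 0.0195 without replicate 2).

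Pdcd1 encodes PD-1, the receptor for PD-L1 and PD-L2. It had 0 counts in all 4 in vitro libraries, against 4 and 2 counts in CIS-null ex vivo libraries and 9 and 3 counts in wild-type ex vivo libraries. With 18 counts in all it failed the low-count filter. Set against a floor of 3 counts over each in vitro group, the ex vivo level was 2.16-fold higher in CIS-null cells and 4.66-fold higher in wild-type cells. The floor allows for counting error of the in vitro zeros only. The 6 CIS-null and 12 wild-type ex vivo counts were taken as exact, so these folds are no firm bounds. Fitted with no low-count filter, it was called lower in culture of wild-type cells (edgeR adjusted p = 0.0234) and not of CIS-null cells (0.0768).

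Entpd1 encodes CD39. It had 160.4 and 142 CPM in CIS-null in vitro libraries, against 123 and 179.9 CPM in CIS-null ex vivo libraries. Wild-type libraries held 128 and 126 CPM in vitro, against 100.2 and 128 CPM ex vivo. The states overlapped in both genotypes. The log2 difference was -0.0011 in CIS-null cells (SE 0.182, edgeR adjusted p = 0.996) and 0.15 in wild-type cells (SE 0.182, edgeR adjusted p = 0.498).

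Nt5e encodes CD73. It had 19.7 and 19.3 CPM in CIS-null in vitro libraries, against 16.3 and 26.4 CPM in CIS-null ex vivo libraries. In wild-type cells it had 14.8 and 14.6 CPM in vitro, against 13.2 and 10.4 CPM ex vivo. The CIS-null states overlapped and the wild-type states did not. Neither log2 difference passed the test, at -0.13 in CIS-null cells (SE 0.210, edgeR adjusted p = 0.586) and 0.32 in wild-type cells (SE 0.216, edgeR adjusted p = 0.223). Once replicate 1 of the CIS-null ex vivo group was left out, the CIS-null difference was -0.43 and passed (edgeR adjusted p = 0.0353), and once replicate 2 was left out it was 0.26 (edgeR adjusted p = 0.198). In such fits the lone library left is assumed to vary like the other groups.

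**Figure D2:**
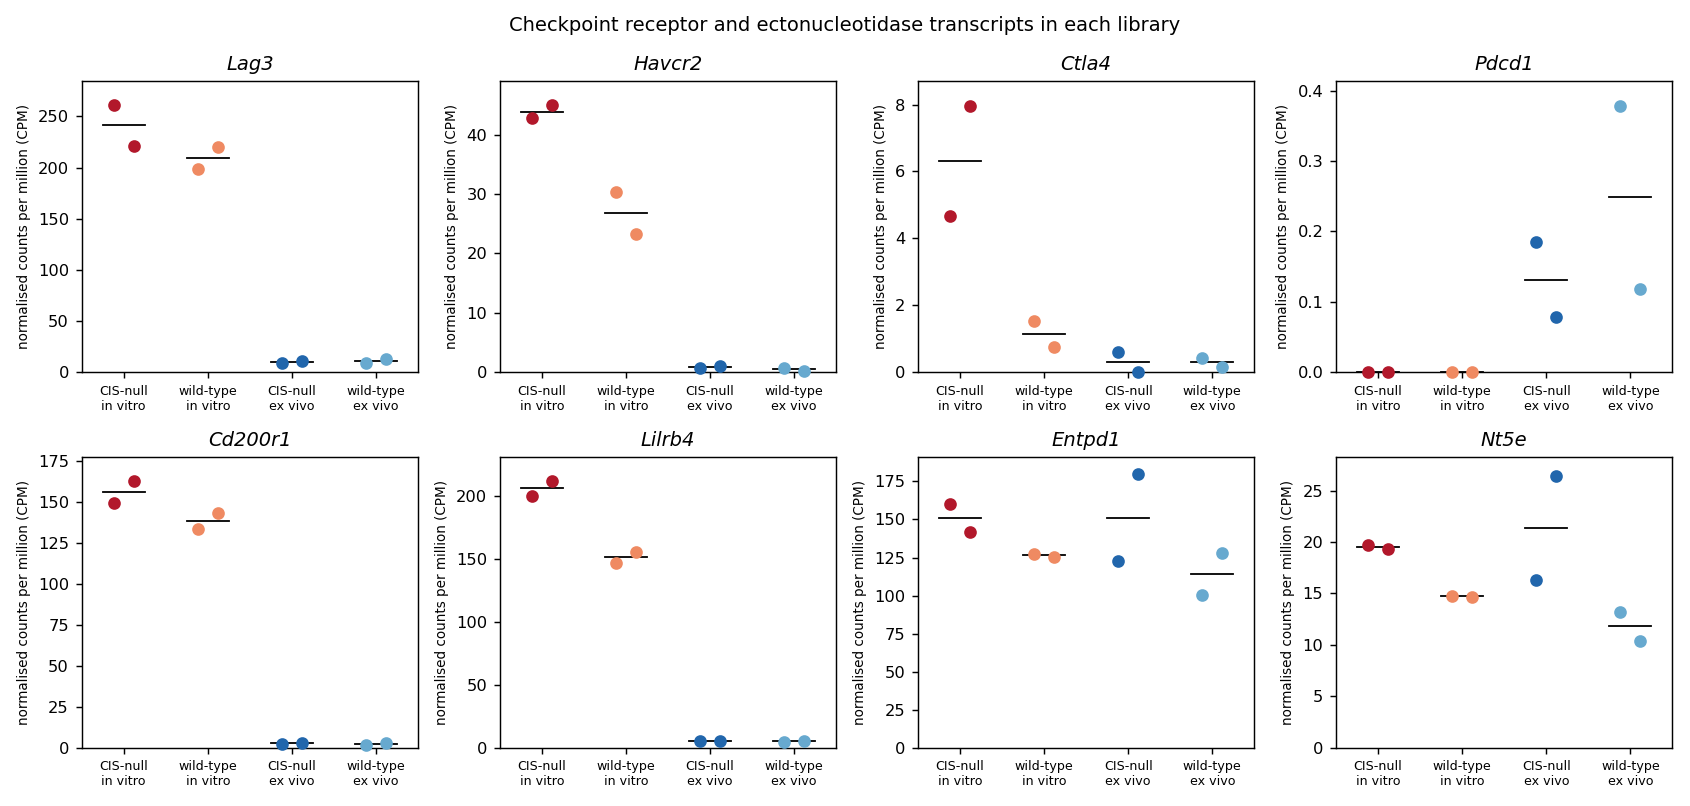
CPM (vertical axis, from 0) of each member, with 1 point per library and a line at the mean of each group of 2. Lag3, Havcr2, Cd200r1 and Lilrb4 are high in the 4 in vitro libraries and low in the 4 ex vivo libraries, while Entpd1 overlaps between the states.

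**Figure D3:**
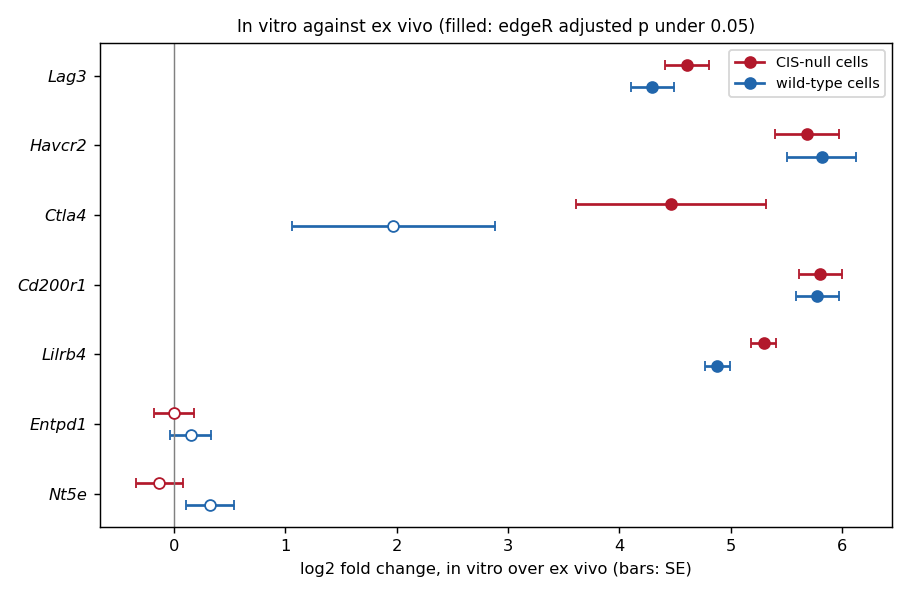
Log2 fold change in vitro over ex vivo (horizontal axis, bars SE) for the 7 members tested, in CIS-null and wild-type cells, with filled points at an adjusted p under 0.05. The 4 receptors Lag3, Havcr2, Cd200r1 and Lilrb4 sit between 4.29 and 5.82 in both genotypes, and Entpd1 and Nt5e between -0.13 and 0.32.

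Markers of cells other than NK cells moved with culture. The 8 B cell markers on a fixed list summed to 0.732 and 0.641 CPM in CIS-null in vitro libraries, against 86.8 and 16.1 CPM in CIS-null ex vivo libraries, and to 0.209 and 0.316 CPM in wild-type cultures, against 32.1 and 27.7 CPM in wild-type ex vivo libraries. The 10 monocyte and macrophage markers summed to 123 and 153 CPM in CIS-null in vitro libraries, against 996 and 1045 CPM in CIS-null ex vivo libraries, and to 54.9 and 44.4 CPM in wild-type cultures, against 599 and 608 CPM in wild-type ex vivo libraries. In culture of each genotype all 8 B cell markers and 8 of the 10 monocyte markers were called lower, and 5 or 6 of each list were at 0 in vitro. Among all tested genes 72.4% were called in either direction in culture of CIS-null cells and 63.7% in wild-type cells. Cd68 was the exception called higher, with 27.1 and 25.03 CPM in CIS-null in vitro and 24.3 and 17.8 CPM in wild-type in vitro libraries, against 11.9 to 14.5 CPM ex vivo, and Cd14 was not called. Basophil and mast cell markers, 10 in all, summed to more in vitro, with 472 and 435 CPM in CIS-null and 775 and 990 CPM in wild-type cultures, against 168 and 115 CPM in CIS-null ex vivo and 97.5 and 92.8 CPM in wild-type ex vivo libraries. Most of the in vitro sum was Kit, at 363 to 955 CPM, with 5 or 6 of the 10 markers at 0. Mcpt8 was also higher in vitro, at 12.4 to 49.4 CPM against 0.589 to 3.45 CPM ex vivo. So was Cpa3, at 14.4 to 22.2 CPM in vitro against 2.21 to 7.65 CPM ex vivo. Of the 9 tested, 3 were called higher and 6 lower in culture of CIS-null cells, and 3 higher and 5 lower in wild-type cells. The 6 dendritic cell markers summed to 367 to 624 CPM in vitro, against 924 to 1106 CPM ex vivo, but nearly all of that was Itgax, at 348 to 610 CPM in vitro against 919 to 1101 CPM ex vivo. Xcr1 of the same list went the other way, at 10.05 to 17.9 CPM in vitro against 0.126 to 1.02 CPM ex vivo. The 6 neutrophil markers summed to at most 0.04 CPM in vitro, against 2.03 to 8.79 CPM ex vivo. T cell markers summed to 992 and 994 CPM in CIS-null in vitro libraries, against 317 and 229 CPM in CIS-null ex vivo libraries, with 4 of 10 called higher and 3 lower. In wild-type cells they summed to 302 and 264 CPM in vitro, against 273 and 291 CPM ex vivo, with 2 called higher and 6 lower. The shares of all tested genes called higher were 34.8% in CIS-null and 32.1% in wild-type cells. Cd28, Cd3g, Cd3d and Lat gave most of the T cell marker sum in every library. The part of cells other than NK cells in the receptor values was not tested.

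Lilrb4 and Cd200r1 have near copies that the counting could split. Over 907 aligned coding bases, Lilrb4 and Gp49a were 96% identical, with a longest identical run of 126 bases. Gp49a rose by a log2 fold change of 4.81 in CIS-null cells and 4.57 in wild-type cells (edgeR adjusted p = 4.55e-07 and 8.13e-07), to 75.5 and 77.1 CPM in CIS-null and 59.6 and 48.6 CPM in wild-type in vitro libraries. The Lilrb4 to Gp49a count ratio stayed between 1.62 and 3.02 in all 8 libraries. In the GENCODE annotation Lilrb4 exons also share 35.3% of their bases with the read-through gene Gm49339 on the same strand. They share 2.51% with Gm40645 on the opposite strand. Whether the authors' counting included these genes is not given in the sources used here, so the level of Lilrb4 is uncertain. In the same annotation, exons of the other 7 members overlap no other gene.

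Among the CD200 receptor relatives, Cd200r1 was 91% identical to Cd200r4 over 790 coding bases and 89.9% identical to Cd200r2 over 721. Cd200r4 rose by 1.71 in CIS-null and 1.45 in wild-type cells on the log2 scale (edgeR adjusted p = 5.34e-06 and 1.80e-05), to a mean of 312 CPM in CIS-null and 221 CPM in wild-type in vitro cells. Cd200r2 rose by 7.41 in CIS-null and 8.09 in wild-type cells (edgeR adjusted p = 2.02e-06 and 2.17e-06). Its means were 130 and 156 CPM in CIS-null and wild-type in vitro cells, against 0.728 and 0.564 CPM in CIS-null and wild-type ex vivo cells. Cd200r3 was lower in culture of CIS-null cells (-1.10, edgeR adjusted p = 0.0394) and was not called in wild-type cells (0.54, edgeR adjusted p = 0.309). How reads shared by copies were counted is not given in the sources used here.

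In cultured cells 3 of the 7 tested members differed between genotypes, and all 3 were higher in CIS-null cells: Havcr2, Ctla4 and Lilrb4. Across all tested genes edgeR called 25.6% in this comparison, 11.0% higher and 14.6% lower. In all 7 tested members both CIS-null in vitro libraries lay above both wild-type in vitro libraries, as they did in 33.7% of tested genes. Scaled by library totals this held for 4 of the 7, beside 23.2% of tested genes, and Lag3, Cd200r1 and Entpd1 overlapped. That scaling moved the median log2 difference of all tested genes to -0.13, and the differences of Lag3 and Cd200r1 were 0.07 and 0.04. The median log2 fold change of the 7 was 0.41, beside 0 over all tested genes.

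Havcr2 had 42.8 and 44.9 CPM in CIS-null in vitro libraries, against 30.3 and 23.2 CPM in wild-type in vitro libraries. They differed by 0.71 on the log2 scale (SE 0.200, edgeR adjusted p = 0.0336). Lilrb4 had 199.9 and 212 CPM in CIS-null in vitro libraries, against 147 and 155 CPM in wild-type in vitro libraries. That was a log2 difference of 0.45 (SE 0.0892, edgeR adjusted p = 0.0113). Its near copy Gp49a was also higher in CIS-null cells (0.50, edgeR adjusted p = 0.0483), as was Cd200r4 (0.50, edgeR adjusted p = 0.0176). Ctla4 had 121 and 199 counts in CIS-null in vitro libraries, against 44 and 21 counts in wild-type in vitro libraries. Those counts were 4.66 and 7.97 CPM in CIS-null and 1.53 and 0.738 CPM in wild-type libraries. The groups differed 5.55-fold, or by 2.47 on the log2 scale (SE 0.698, edgeR adjusted p = 0.0343). The CIS-null libraries were the higher ones for each of these genes and no groups overlapped.

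The remaining members did not pass the test in vitro. Lag3 differed by 0.20 on the log2 scale (SE 0.162, edgeR adjusted p = 0.381), Cd200r1 by 0.17 (SE 0.143, edgeR adjusted p = 0.403), Entpd1 by 0.26 (SE 0.182, edgeR adjusted p = 0.327) and Nt5e by 0.41 (SE 0.211, edgeR adjusted p = 0.185). Nt5e passed with the 4 in vitro libraries alone (edgeR adjusted p = 0.0463), as it did with either CIS-null ex vivo library left out (0.0452 without replicate 1 and 0.0475 without replicate 2). Pdcd1 had 0 counts in both groups.

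Leaving out 1 library at a time gave 0 to 4 members called for genotype in vitro, while the log2 differences stayed at 0.53 to 0.96 for Havcr2 and 0.40 to 0.49 for Lilrb4. Havcr2 lost its call without each of the 4 in vitro libraries (edgeR adjusted p of 0.0878 and 0.193 without CIS-null replicates 1 and 2, and 0.0555 and 0.177 without wild-type replicates 1 and 2) and with scaling by library totals (0.0657). Ctla4 lost it without each of the same 4 libraries (0.0639 and 0.261 without CIS-null replicates 1 and 2, and 0.0843 and 0.173 without wild-type replicates 1 and 2), without either wild-type ex vivo library (0.0655 each) and in DESeq2 (adjusted p = 0.169). Its log2 difference ranged from 2.04 to 3.13 over these in vitro omissions. Lilrb4 lost it without CIS-null in vitro replicate 2 (0.0666) or wild-type in vitro replicate 1 (0.0744) or 2 (0.0565), and its difference was 0.27 with the trend on gene length removed (edgeR adjusted p = 0.0524).

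T cell markers moved with the genotype of cultured cells, beside Ctla4, a gene of activated and regulatory T cells. The 10 markers on a fixed list summed to 992 and 994 CPM in CIS-null and 302 and 264 CPM in wild-type in vitro libraries. edgeR called 6 of the 10 higher, beside 11.0% of all tested genes. Most of the CIS-null sum was Cd3g, at 496 and 450 CPM, and Cd3d, at 241 and 272 CPM. In wild-type in vitro libraries Cd3g had 130 and 147 CPM and Cd3d 28.1 and 10.4 CPM. Other markers of the list were low, with 17 and 11 counts of Cd8b1 and 6 and 4 counts of Cd6 in CIS-null in vitro libraries. Cd3e, a chain of the T cell receptor complex, had 86.6 and 68.8 CPM in CIS-null in vitro libraries, against 9.87 and 3.51 CPM in wild-type in vitro libraries. Cd8a, a T cell coreceptor, had 9.02 and 6.21 CPM in CIS-null in vitro libraries, against 1.56 and 0.141 CPM in wild-type in vitro libraries. The helper T cell coreceptor Cd4 had 0 and 1 count in CIS-null in vitro libraries, against 3 and 2 counts in wild-type in vitro libraries. Foxp3, which defines regulatory T cells, had 0 and 1 count in CIS-null in vitro libraries, against 0 in both wild-type in vitro libraries. Within the wild-type in vitro pair Ctla4 and every T cell marker on the list except Cd3g were higher in replicate 1. Within the CIS-null in vitro pair the order was mixed. Ctla4, Cd3d, Cd28, Lat and Cd4, at 1 count, were higher in replicate 2. Cd3e, Cd3g, Cd8a, Cd8b1, Cd5 and Cd6 were higher in replicate 1. The part of T cells in the Ctla4 value was not tested. Of the 6 regulatory T cell markers, none of the 5 tested was called, beside 25.6% of all tested genes. The 6 summed to 243 and 216 CPM in CIS-null and 196 and 184 CPM in wild-type in vitro libraries. Monocyte and macrophage markers also summed to more in CIS-null in vitro cells, as given above. Of the 10, 2 were called higher, beside 11.0% of all tested genes. The part of monocytes and macrophages in the Havcr2 and Lilrb4 values was not tested.

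**Figure D4:**
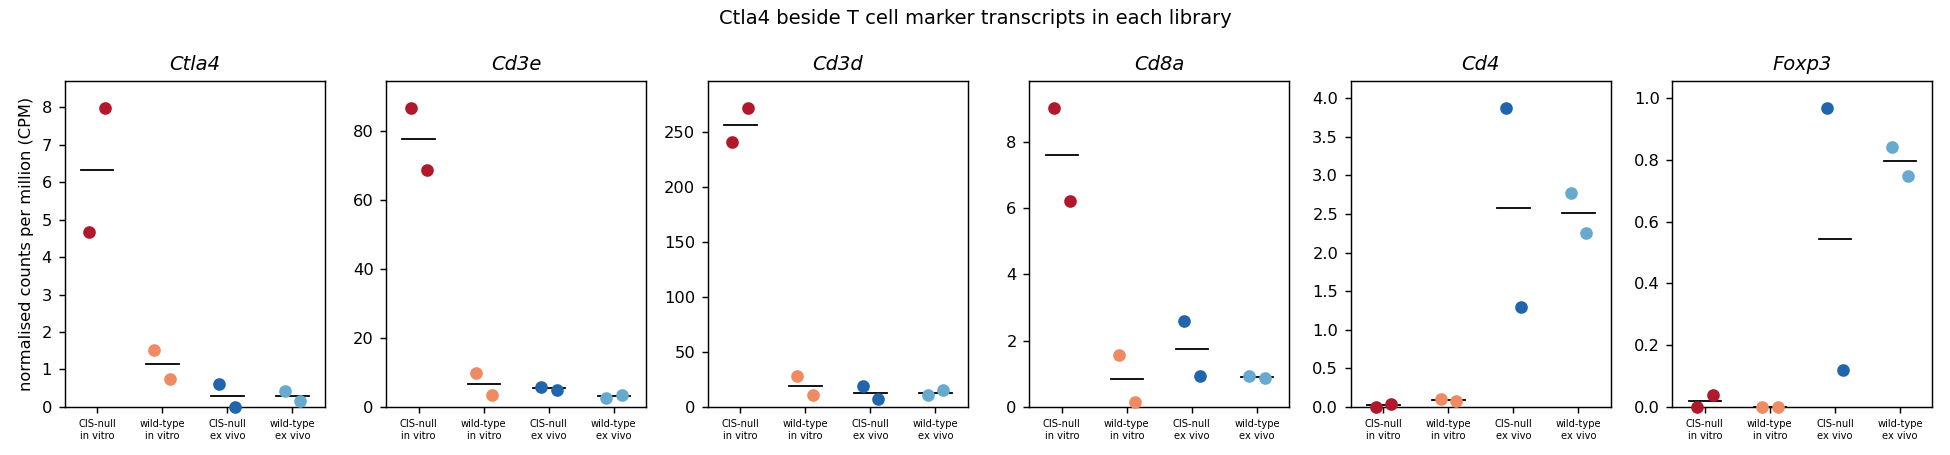
CPM (vertical axes, each from 0) of Ctla4 and of the T cell transcripts Cd3e, Cd3d, Cd8a, Cd4 and Foxp3, with 1 point per library and a line at each group mean. Ctla4, Cd3e, Cd3d and Cd8a are highest in the CIS-null in vitro libraries, while Cd4 and Foxp3 are at 0 or 1 count there.

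Ex vivo, 0 of the 7 tested members were called for genotype, beside 0.0607% of all tested genes in edgeR. DESeq2 and limma-voom also called 0, and 1 member, Nt5e, had an unadjusted p under 0.05, as had 844 of the 13184 genes. Nt5e had 16.3 and 26.4 CPM in CIS-null ex vivo libraries, against 13.2 and 10.4 CPM in wild-type ex vivo libraries. Its CIS-null libraries were spread 1.61-fold. Its log2 difference was 0.86 (SE 0.215, edgeR adjusted p = 0.593). Havcr2 had 0.737 and 0.944 CPM in CIS-null ex vivo libraries, against 0.715 and 0.237 CPM in wild-type ex vivo libraries. The log2 difference of Havcr2 was 0.84 (edgeR adjusted p = 0.766), and 1.82 or 0.24 without wild-type ex vivo replicate 1 or 2. Entpd1, at 123 and 179.9 CPM in CIS-null against 100.2 and 128 CPM in wild-type ex vivo libraries, overlapped (0.41, edgeR adjusted p = 0.766). Lag3, Ctla4, Cd200r1 and Lilrb4 differed by -0.11, -0.02, 0.15 and 0.03 on the log2 scale, with edgeR adjusted p of at least 0.878. Monocyte and macrophage markers summed to 996 and 1045 CPM in CIS-null ex vivo libraries, against 599 and 608 CPM in wild-type ex vivo libraries, of which Ly6c2 alone gave 814 and 914 CPM in CIS-null and 444 and 507 CPM in wild-type libraries. None of the 10 was called, and Lyz2 went the other way, at 8.24 and 14.0 CPM in CIS-null and 31.9 and 23.1 CPM in wild-type ex vivo libraries. The part of these cells in the Nt5e and Entpd1 values was not tested.

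The genotype difference in vitro was compared directly with that ex vivo, as an interaction, and 0 of the 7 members were called, beside 0.137% of all tested genes. DESeq2 and limma-voom called 0 as well, and 1 member, Lilrb4, had an unadjusted p under 0.05. The Lilrb4 genotype difference was 0.42 larger in vitro than ex vivo on the log2 scale (SE 0.150, edgeR adjusted p = 0.195). For Ctla4 the difference between states was 2.49 with a wide error (SE 1.35, edgeR adjusted p = 0.346), and for Havcr2 it was -0.13 (SE 0.481, edgeR adjusted p = 0.923). No member called in vitro alone was therefore shown to respond differently ex vivo.

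**Figure D5:**
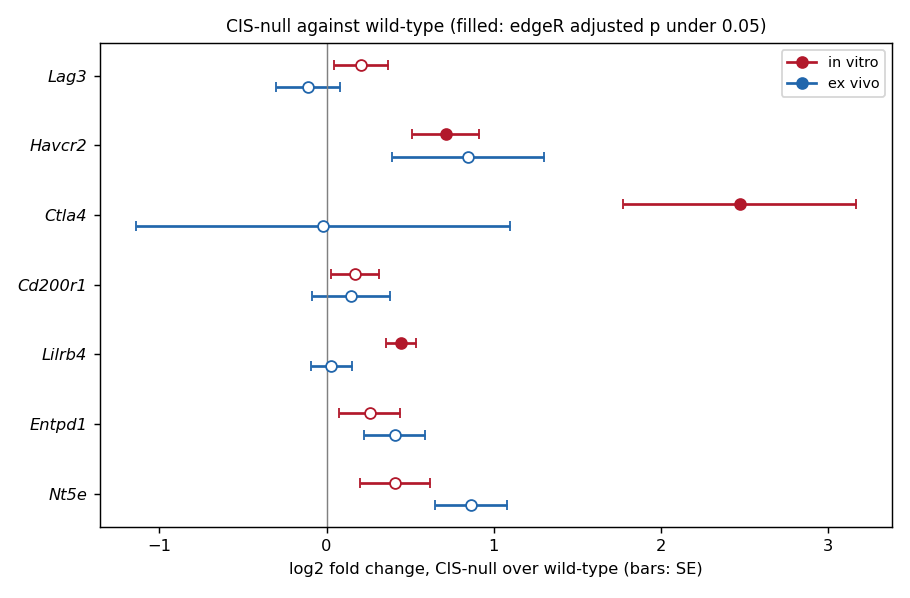
Log2 fold change of CIS-null over wild-type cells (horizontal axis, bars SE) for the 7 members tested, in vitro and ex vivo, with filled points at an adjusted p under 0.05. The points of Havcr2, Ctla4 and Lilrb4 in vitro are filled, at 0.71, 2.47 and 0.45, and no ex vivo point is filled.

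Transcripts of ligands of these receptors were also present in the libraries. Of 10 on a fixed list 8 were tested, and edgeR called 4 higher and 1 lower in culture of CIS-null cells, and 5 higher and 1 lower in culture of wild-type cells, beside 72.4% and 63.7% of all tested genes called in CIS-null and wild-type cells. Fgl1 had 0 counts in all libraries. Lgals3, the galectin-3 gene, a ligand of LAG-3, averaged 1653 and 1266 CPM in CIS-null and wild-type in vitro cells, against 25.5 and 23.5 CPM in CIS-null and wild-type ex vivo cells. Pdcd1lg2, the gene of the PD-1 ligand PD-L2, rose by 3.76 in CIS-null and 3.28 in wild-type cells on the log2 scale (edgeR adjusted p = 3.60e-07 and 7.69e-07). Hmgb1, a chromatin protein that binds TIM-3, rose by 0.45 and 0.36 in CIS-null and wild-type cells (edgeR adjusted p = 0.00464 and 0.0172). Cd86, a CTLA-4 ligand of antigen-presenting cells, fell with log2 fold changes of -3.38 and -4.71 in CIS-null and wild-type cells, to means of 0.609 and 0.192 CPM in vitro (edgeR adjusted p = 9.30e-05 and 5.39e-05). B cell markers and 8 of 10 monocyte markers were also lower, and their part in the Cd86 value was not tested. None of the 8 was called for genotype in vitro or ex vivo, beside 25.6% and 0.0607% of all tested genes. The medians in vitro were 0.04 for the ligands and 0 for all tested genes.

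Inhibitory receptors outside the set moved in both directions in culture. Of 14 on a fixed list, all tested, 4 were higher and 8 lower in CIS-null cells, and 4 higher and 7 lower in wild-type cells, beside the 72.4% and 63.7% of all tested genes. Their median log2 fold change was -1.04 in CIS-null and -1.03 in wild-type cells, beside medians over all tested genes of -0.05 and -0.0025. Cd160, a receptor for HVEM, averaged 524 and 541 CPM in CIS-null and wild-type in vitro cells, against 106 and 97.2 CPM in CIS-null and wild-type ex vivo cells. Cd96 and Tigit, receptors for CD155, rose by 1.91 and 2.01 in CIS-null cells and by 2.15 and 1.25 in wild-type cells (all edgeR adjusted p at most 0.000177). Klrg1, a cadherin receptor of mature NK cells, fell, at -4.07 in CIS-null and -4.40 in wild-type cells (edgeR adjusted p = 3.39e-06 and 3.46e-06). Klrc1, which encodes NKG2A, fell, at -0.96 in CIS-null and -1.54 in wild-type cells (edgeR adjusted p = 0.000227 and 2.69e-05). In vitro 2 of the 14 were called for genotype, beside 25.6% of all tested genes. They were Klrc1 (0.62, edgeR adjusted p = 0.0141) and Tigit (0.55, edgeR adjusted p = 0.0295), both higher in CIS-null cells. Ex vivo 0 of the 14 were called, beside 0.0607% of all tested genes.

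Genes that make, move or sense adenosine and nucleotides were described beside the ectonucleotidases. Of 24 on a fixed list 17 were tested, and 6 were higher and 6 lower in culture of each genotype, beside 72.4% of all tested genes called in CIS-null and 63.7% in wild-type cells, with medians of -0.08 in CIS-null and 0.02 in wild-type cells. Adora2a, an adenosine receptor gene, averaged 31.9 and 37.6 CPM in CIS-null and wild-type in vitro cells, against 220 CPM in both CIS-null and wild-type ex vivo cells, and its log2 fold changes were -2.79 in CIS-null and -2.54 in wild-type cells (edgeR adjusted p = 1.56e-06 and 3.18e-06). Adora2b, another adenosine receptor gene, averaged 13.9 and 7.82 CPM in CIS-null and wild-type in vitro cells, against 0.247 and 0.141 CPM in CIS-null and wild-type ex vivo cells (edgeR adjusted p = 1.50e-05 and 4.09e-05). Slc29a1, a nucleoside transporter gene, rose by 1.16 and 0.63 in CIS-null and wild-type cells. Enpp1, which encodes another nucleotide-cleaving ectoenzyme, fell, at -1.68 in CIS-null and -1.70 in wild-type cells, and so did Entpd6, a relative of Entpd1, at -0.54 and -0.73 in CIS-null and wild-type cells. In vitro 3 of the 17 were called for genotype, beside 25.6% of all tested genes, all higher in CIS-null cells. They were Dpp4, which encodes CD26, the anchor of adenosine deaminase in humans (2.28, edgeR adjusted p = 0.00656), Slc29a1 (0.36, edgeR adjusted p = 0.0303) and the ATP receptor gene P2rx7 (1.79, edgeR adjusted p = 0.0468). P2rx7 was low, with 50 and 25 counts in CIS-null in vitro libraries, against 9 and 15 counts in wild-type in vitro libraries. Ex vivo 0 of the 17 were called, beside 0.0607% of all tested genes.

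Of 12 signalling partners of inhibitory receptors, all tested, 3 were higher and 6 lower in culture of CIS-null cells, and 3 higher and 5 lower in culture of wild-type cells, beside the same 72.4% and 63.7% of all tested genes called in CIS-null and wild-type cells. Csk, a kinase that restrains Src-family kinases, fell, at -1.01 and -0.91, as did the adaptor Dok2, at -1.29 and -1.14, in CIS-null and wild-type cells. Its relative Dok1 rose by 1.03 and 1.18, and Ptpn6, which encodes the phosphatase SHP-1, by 0.69 and 0.65, in CIS-null and wild-type cells. For genotype in vitro 2 of 12 were called, beside 25.6% of all tested genes, both lower in CIS-null cells: Inpp5d, which encodes the lipid phosphatase SHIP-1 (-0.53, edgeR adjusted p = 0.0323), and Bag6, which binds the tail of TIM-3 (-0.41, edgeR adjusted p = 0.0336).

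Transcription factors known from T cell exhaustion were mixed. Of 12 on a fixed list 11 were tested, and 5 were higher and 3 lower in culture of CIS-null cells, and 6 higher and 2 lower in culture of wild-type cells, again beside 72.4% and 63.7% of all tested genes. Irf4 rose by 2.77 and 2.44 and Batf by 0.89 and 0.78 in CIS-null and wild-type cells, while Tcf7, a factor of memory and progenitor cells, fell, at -2.49 and -1.86 in CIS-null and wild-type cells. For genotype in vitro 1 of the 11 was called higher and 3 lower, beside 11.0% and 14.6% of all tested genes. Ikzf2 (Helios) was higher in CIS-null cells (1.07, edgeR adjusted p = 0.0135). Maf (-1.48, edgeR adjusted p = 0.00297), Tox (-0.67, edgeR adjusted p = 0.0329) and Tcf7 (-0.75, edgeR adjusted p = 0.0369) were lower. For genotype ex vivo 0 of the 11 were called, beside 0.0607% of all tested genes.

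Likeness of pattern to other genes was measured as Pearson's r of log2 CPM over the 8 libraries, among 9200 genes averaging at least 5 CPM, and the libraries fall into 2 states, so r mainly follows culture. Among the most alike genes were Cdr2 (0.9989) and Mlec (0.9987) for Lag3, Lrp11 (0.9989) and Fdft1 (0.9978) for Havcr2, Rmi2 (0.9992) and Cdr2 (0.9987) for Cd200r1, and Tesc (0.9997) for Lilrb4. Between 1308 and 1548 genes had an r over 0.95 with each of these 4 receptors. Fcf1 (0.99) was among those for Ctla4, with 65 genes over 0.95. For Entpd1 the most alike were Fyco1 (0.911) and Dnaja1 (0.902), and for Nt5e Rbm4b (0.870) and Dnaja1 (0.861), with 0 genes over 0.95 for either enzyme gene.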

How the data were processed

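The deposited matrix holds raw read counts per Entrez gene, which the authors made by aligning reads to GRCm38/mm10 with Subread and counting with featureCounts, per the submitters' processing notes. Strand and shared-read settings are not given in the sources used here. The deposited per-sample files hold the authors' log2 RPKM for 12372 genes, including 7 of the 8 members, and were used for 1 alternative. Library totals ran from 21.5 to 28.1 M.

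Count tests used edgeR 4.0.16 under R 4.3.3. Filtering by group (minimum count 10, minimum total 15) left 13184 of 27179 genes and 7 of 8 members. TMM-normalised CPM, and RPKM from the gene lengths in the matrix, were computed here. A single model of all 8 libraries gave each group its own mean, leaving 4 residual degrees of freedom, and 5 comparisons, some sharing libraries, were tested by quasi-likelihood F. Genes with a Benjamini-Hochberg adjusted p under 0.05, over the whole table, were called. Each SE was obtained by dividing the size of the log2 difference by the root of F. The fit was tested on simulated data in which all genes and groups shared the same spread. That test does not cover replicates that differ unequally by group, as these do.

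The members and gene lists were chosen with earlier results of these data known. All members were named in every comparison, with the 2 genes most like each tested member (some are not reported here), up to 4 called genes of lowest p per list and comparison, and defining cell type markers. Markers of regulatory T cells, B cells, monocytes and other cells were summed per library. Fits with other scalings, filters, tools (DESeq2 1.42.0, limma 3.58.1), libraries and a gene length correction were compared. Replicates of each group differed beyond counting noise (chi-square per degree of freedom 5.7 to 32.1). Promoters and gene positions came from RefSeq (GRCm38.p6), and exon overlaps and coding sequences from GENCODE.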

Additional observations from a re-analysis of the deposited data

How the results depend on the processing

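Of 618 values of single members under alternative settings, 552 kept their direction and side of the threshold, 19 lost a call, 7 gained one and 40 changed sign. The number of members called in culture of CIS-null cells, culture of wild-type cells, genotype ex vivo and the interaction stayed within 1.5 times under every alternative run. For genotype in vitro limma on the deposited log2 RPKM called 0 members in place of 3, and leaving out 1 library gave 0 to 4; the cause was not tested. With a replicate block the counts of members were the same, at 3 for genotype in vitro, 5 and 4 for culture in CIS-null and wild-type cells and 0 for the other 2 comparisons, while the count over all genes for genotype in vitro was 2527 in place of 3374. Replicate numbers did not pair the libraries, with correlations of deviations between groups of -0.232 to 0.146.

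Over all genes, leaving out 1 library moved the calls of genotype in vitro between 500 (without CIS-null in vitro replicate 2) and 4296 (without CIS-null ex vivo replicate 1). Across settings, calls of genotype ex vivo ranged from 3 to 45 beside 8, and those of the interaction from 0 with limma on log2 RPKM to 592 with DESeq2, beside 18.

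Signs changed in differences that did not pass the test. For Entpd1 in culture of CIS-null cells, -0.0011 became 0.0040 with RLE factors, 0.019 without a filter, 0.0042 in DESeq2, 0.0227 under limma-voom, 0.0087 with only the compared samples, 0.0206 with the replicate block, 0.0455 with log2 RPKM and 0.39 with the length trend removed, where it was called (edgeR adjusted p = 0.0476). Nt5e in culture of CIS-null cells became 0.15 with the length trend removed. Ex vivo, Ctla4 became 0.0198 in DESeq2 and Lilrb4 -0.023 with the length trend removed. In the interaction, Cd200r1 became -0.0899 with library totals, -0.00014 in limma-voom, -0.0384 with the length trend removed and -0.0645 with log2 RPKM, and Entpd1 became 0.0313 with the length trend removed. Leaving out 1 library gave ex vivo genotype ranges of -0.33 to 0.15 for Lag3, -5.92 to 1.05 for Ctla4, -0.14 to 0.53 for Cd200r1 and -0.0471 to 0.11 for Lilrb4. It gave interaction ranges of -0.35 to 0.31 for Cd200r1, -1.11 to 0.47 for Havcr2 and -0.40 to 0.15 for Entpd1. In culture of CIS-null cells it gave -0.25 to 0.30 for Entpd1 and -0.43 to 0.26 for Nt5e, and in culture of wild-type cells -0.0133 to 0.34 for Entpd1. Depth limits Ctla4 and Pdcd1 ex vivo most, with at most 14 and 12 counts over a group.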
